A study of Mus musculus with 40 samples.

Results

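The step from FrB to FrC in mutant mice was measured in 10 of the 40 libraries of the study, the 5 FrC libraries and the 5 FrB libraries of mutant mice 4, 5, 8, 9 and 10, chosen by the genotype, fraction letter and mouse number in the library titles and paired by mouse. FrB and FrC are early B-lineage fractions of the bone marrow in the Hardy scheme, and each library held the RNA of 100 sorted cells, amplified by Smart-seq2, a full-length protocol for few cells that starts from polyadenylated RNA. Mutant chimeras were CD45.1 hosts given a lethal dose of radiation and then marrow homozygous for the P198A substitution in the zinc transporter ZIP7 (gene Slc39a7), made by CRISPR/Cas9. WT chimeras were the same kind of host given WT marrow, and WT mice 1, 2, 3, 6 and 7 gave the 10 FrC and FrB libraries that are set beside the mutant ones. All donor-derived cells were sorted 8 weeks after transfer as CD45.1- CD45.2+ cells. FrB was sorted as B220+ CD43+ CD24+ BP-1-; for FrC the sources used here state no gate. The substitution is present in every cell of the transferred marrow, so blood cells of other kinds in these mice carry it too, while the rest of the host does not. Slc39a7 RNA does not check the genotype, since the allele changes 1 residue of the protein. It was measured at 65.2, 126.1, 87.6, 0.0 and 137.4 CPM (counts scaled to the endogenous total of the library) in mutant FrC of mice 4, 5, 8, 9 and 10, and at 116.0, 41.0, 100.8, 130.7 and 268.4 CPM in mutant FrB of the same mice. Both fractions expressed the gene, apart from the FrC library of mouse 9, where it had no count.

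As background, FrB holds pro-B cells, which express the RAG recombinase and terminal transferase and join the V, D and J segments of the immunoglobulin heavy chain. A heavy chain that pairs with the surrogate light chain forms the pre-BCR, whose signal drives a burst of division as cells acquire the surface peptidase BP-1 (aminopeptidase A, gene Enpep) and become large pre-B cells, the stage usually gated as FrC. ZIP7 sits in the membranes of the endoplasmic reticulum and Golgi and releases zinc from these stores into the cytosol. Immunoglobulin heavy and light chain genes are not analysed here.

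Library quality differed within the mutant step and has to be read beside each result. Endogenous totals were 18505637, 6383217, 38120623, 1723215 and 9704316 counts in mutant FrC of mice 4, 5, 8, 9 and 10, and 8307248, 16693027, 2490592, 9440875 and 14529319 counts in mutant FrB. The share of detected genes with only 1 to 9 counts was 7.61%, 22.6%, 6.27%, 56.8% and 29.4% in mutant FrC and 21.1%, 7.60%, 39.6%, 24.7% and 16.4% in mutant FrB, against 6.62% to 8.54% in the 10 WT libraries. Libraries over 15% are called low-complexity below: they were FrC of mice 5, 9 and 10 and FrB of mice 4, 8, 9 and 10. The nearest library over this limit in the series was mutant FrB of mouse 10 at 16.4%, and the nearest under it was WT FrE of mouse 1 at 14.7%. When the low-complexity libraries are dropped, FrC of mice 4 and 8 and FrB of mouse 5 remain, which share no mouse. The step was then fitted without pairing, from the 30 such libraries of the 8 groups, so the lone FrB library is assumed to vary like the others.

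The fractions also had to be checked against BP-1. Enpep was measured at 126.7, 0.6, 84.8, 4.6 and 75.9 CPM in mutant FrC of mice 4, 5, 8, 9 and 10, against 0.1, 4.4, 0.4, 1.0 and 0.0 CPM in mutant FrB. In WT mice 1, 2, 3, 6 and 7 it stood at 85.8, 96.3, 75.6, 157.6 and 65.8 CPM in FrC, against 7.6, 0.0, 5.6, 1.7 and 1.1 CPM in FrB. In CPM the FrC libraries of mutant mice 5 and 9 were therefore below every WT FrC library, at levels seen in FrB. CPM leave out the scaling factors (TMM) that the fits use. The factor was 0.196 in FrC of mouse 9, against 0.813 to 1.51 in the other mutant libraries. With it the Enpep level of FrC of mouse 9 stands higher relative to those libraries than in CPM. Mouse 5 was the mouse whose FrB library had more Enpep than its FrC library. Granulocyte markers, Spn and Pdcd1 in mouse 5 also ran opposite to the other mutant mice, with values given below. In contrast Dntt (73.2 CPM in FrC and 606.5 CPM in FrB) and Jchain (365.6 CPM in FrC and 10034 CPM in FrB) ran the same way as in them. An exchange of the 2 libraries of mouse 5 was not tested; the labels were kept, and each value of mouse 5 is that of the library so labelled. BP-1 was part of the FrB gate, so its level is a check of the sort and not a finding. Fits without mouse 5, and without mice 5 and 9, are given beside the calls.

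**Figure D1:**
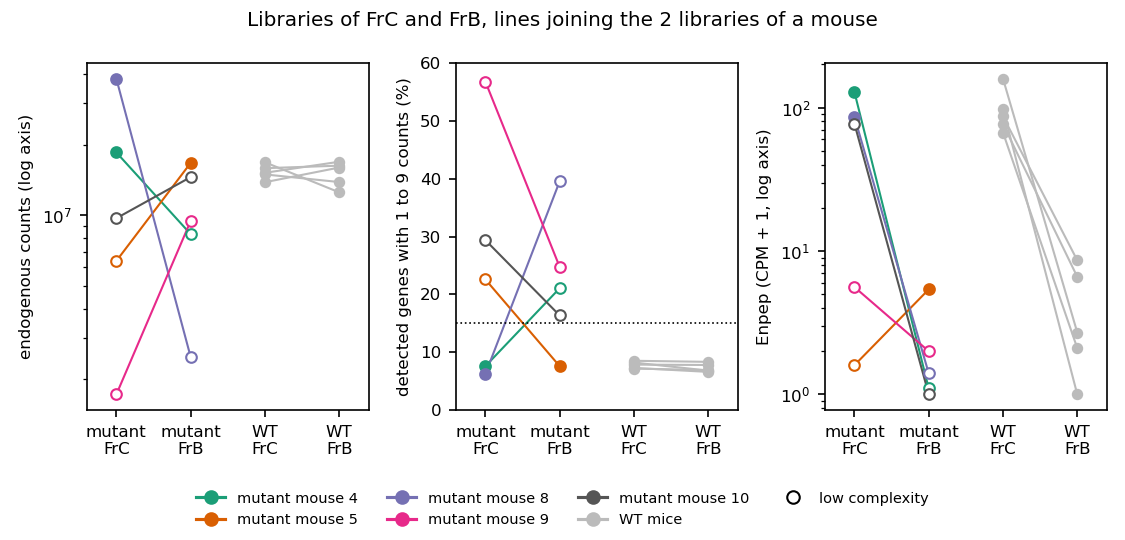
Endogenous counts (log axis), the percent of detected genes with 1 to 9 counts (dotted line at 15%) and Enpep in CPM + 1 (log axis) for mutant FrC and FrB and WT FrC and FrB; each point is a library, lines join the libraries of a mouse, and open points are low-complexity libraries. WT libraries lie close together, between 6.62% and 8.54% in the middle panel, while mutant libraries spread from 6.27% to 56.8%, and mutant FrC of mice 5 and 9 stand at 0.6 and 4.6 CPM of Enpep.

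Of 9395 genes tested over the 5 mutant pairs, 1 was higher in FrC (0.0106% of the genes tested) and 15 were lower (0.16%), at an adjusted p under 0.05. The gene that rose was Pdcd1, the inhibitory receptor PD-1. Of the 15 that fell 8 are on the list of granulocyte and monocyte markers: Mmp8, Lcn2, Prtn3, Elane, Mmp9, Ltf, Chil3 and Ctsg. The others were Retnlg, Pglyrp1, Cd63, Cd177, Ly6c2, Runx3 and Gbp7. Ltf, Gbp7, Chil3, Ctsg and Cd177 lie outside the rule for named genes and were chosen after their values were seen. At an unadjusted p under 0.05 the counts were 171 genes higher (1.82%) and 222 lower (2.36%). In WT mice 213 of 10868 genes rose (1.96%) and 482 fell (4.44%). The common biological coefficient of variation was 1.13 in the mutant fit and 0.553 in the WT fit.

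The mutant calls depended on the pairs and the libraries. No gene passed without the pairing by mouse, with other size factors (those of DESeq2), without mouse 4 or mouse 10, or with the low-complexity libraries left out, while 5 genes rose and 35 fell without mouse 5, and 4 rose and 39 fell without mice 5 and 9. With all pairs kept and an indicator of low-complexity libraries added, 1 gene was higher and 17 were lower, and 15 of the 16 genes were still called, all but Ctsg. Without mouse 5 all but Gbp7 were still called. Every FrB library left in that fit is low-complexity, while FrC of mouse 4 and of mouse 8 is not. Fraction and library quality are thus partly confounded there. Without mice 5 and 9 Pdcd1, Ltf, Ctsg and Gbp7 were not called (adjusted p = 0.458, 0.391, 0.0606 and 0.26), and Elane was not tested. Without mouse 8 there were 2 higher and 5 lower, and without mouse 9 there were 0 higher and 8 lower. All 16 genes kept their direction in each of these fits in which they were tested. Genes picked for large changes in the same libraries were likely to do so.

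Sequences upstream of genes that moved together are shown because many neutrophil granule genes are known targets of the C/EBP and PU.1 transcription factors. The letters searched on both strands were TTGCNNAA, a C/EBP-type core, and GAGGAAG, a PU.1-type core. Capitals mark a match to either, and each stretch runs from 250 bases before to 50 after the RefSeq start on the strand of the gene (GRCm38.p6). They are Retnlg (chr16:48872358-48872657, plus strand), Mmp8 (chr9:7558179-7558478, plus strand), Pglyrp1 (chr7:18884440-18884739, plus strand), Lcn2 (chr2:32387690-32387989, minus strand) and Pdcd1 (chr1:94052504-94052803, minus strand).
Retnlg: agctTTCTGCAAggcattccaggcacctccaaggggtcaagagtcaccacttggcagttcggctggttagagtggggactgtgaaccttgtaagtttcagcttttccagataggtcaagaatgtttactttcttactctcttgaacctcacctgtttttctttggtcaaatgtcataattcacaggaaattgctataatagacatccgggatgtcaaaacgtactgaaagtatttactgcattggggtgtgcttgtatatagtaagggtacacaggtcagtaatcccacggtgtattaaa
Mmp8: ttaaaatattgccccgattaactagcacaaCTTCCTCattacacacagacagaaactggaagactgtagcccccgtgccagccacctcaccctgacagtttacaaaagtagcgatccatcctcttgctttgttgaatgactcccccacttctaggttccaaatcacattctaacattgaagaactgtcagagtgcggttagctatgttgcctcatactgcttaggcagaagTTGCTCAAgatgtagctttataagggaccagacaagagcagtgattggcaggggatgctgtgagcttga
Pglyrp1: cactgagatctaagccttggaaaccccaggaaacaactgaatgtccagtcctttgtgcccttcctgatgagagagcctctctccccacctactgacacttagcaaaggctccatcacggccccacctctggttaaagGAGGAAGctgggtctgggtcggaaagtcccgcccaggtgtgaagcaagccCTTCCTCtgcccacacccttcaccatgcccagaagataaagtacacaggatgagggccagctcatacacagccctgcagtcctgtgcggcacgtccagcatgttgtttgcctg
Lcn2: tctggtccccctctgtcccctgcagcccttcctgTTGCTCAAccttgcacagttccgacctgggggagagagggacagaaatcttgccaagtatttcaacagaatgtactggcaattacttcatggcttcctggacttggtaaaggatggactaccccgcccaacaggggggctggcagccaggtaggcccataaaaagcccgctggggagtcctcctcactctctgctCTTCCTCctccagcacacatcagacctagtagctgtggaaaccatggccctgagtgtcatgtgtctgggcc
Pdcd1: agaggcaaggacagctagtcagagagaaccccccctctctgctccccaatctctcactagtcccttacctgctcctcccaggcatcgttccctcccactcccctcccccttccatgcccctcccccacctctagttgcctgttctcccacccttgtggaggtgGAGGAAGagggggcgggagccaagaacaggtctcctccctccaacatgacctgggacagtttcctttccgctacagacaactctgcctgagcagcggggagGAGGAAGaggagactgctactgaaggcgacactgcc
Mmp8 and Lcn2 hold both kinds of core, Retnlg only the C/EBP type, and Pglyrp1 and Pdcd1 each hold 2 of the PU.1 type. Of the 16 called genes 15 have a promoter entry in the RefSeq table. Among the 14 with an entry that fell, 4 hold TTGCNNAA and 8 hold GAGGAAG, while 10.8% and 13.6% of all 32851 promoters listed by RefSeq do. A match is a description of the letters in this window only.

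The myeloid genes among those that fell were lower in FrC than in FrB in mutant mice 4, 8, 9 and 10, though the level in FrB varied from gene to gene. Retnlg, a resistin-like protein secreted by neutrophils, was measured at 0.3, 71.8, 0.0, 4.1 and 0.4 CPM in mutant FrC of mice 4, 5, 8, 9 and 10, against 190.0, 104.5, 685.0, 2589.6 and 1081.2 CPM in mutant FrB. Every FrC library lay below every FrB library, and the fitted log2 fold change was -9.13 ± 1.56 (SE, adjusted p = 4.48e-05). Here and below an SE is derived from the F statistic of the test and is not a spread over mice. In WT mice 1, 2, 3, 6 and 7 Retnlg stood at 15.1, 0.0, 0.3, 0.0 and 0.1 CPM in FrC and 11, 3.3, 1.0, 53.6 and 9.1 CPM in FrB, with a log2 fold change of -4.91 that did not pass (adjusted p = 0.137).

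Lcn2, lipocalin 2, a granule protein that binds bacterial siderophores, was measured at 0.5, 1053.2, 0.1, 6.4 and 2.1 CPM in mutant FrC, against 376.7, 139.7, 1867.0, 2922.3 and 1179.2 CPM in mutant FrB. Here the groups overlap through mouse 5, whose FrC library exceeded its FrB library. The fitted log2 fold change was -8.35 ± 1.71 (SE, adjusted p = 0.00221), and in WT mice it was -6.87 (adjusted p = 0.0246). Pglyrp1, a bactericidal peptidoglycan-binding protein of neutrophil granules, fell in both genotypes as well, by 7.68 on the log2 scale in mutants (adjusted p = 0.00217) and by 4.46 in WT mice (adjusted p = 0.00281).

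The collagenase Mmp8 had 0.1, 117.8, 0.1, 0.6 and 0.6 CPM in mutant FrC, against 27.2, 22.7, 567.3, 924.3 and 205.3 CPM in mutant FrB. The gelatinase Mmp9 had 0.1, 171.9, 0.0, 1.2 and 1.0 CPM in mutant FrC, against 45.5, 26.5, 711.9, 868.6 and 390.2 CPM in mutant FrB. Both fell, with log2 fold changes of -8.27 ± 1.42 and -8.26 ± 1.70 (SE, adjusted p = 5.04e-05 and 0.0108), and in both mouse 5 went the other way. Neither passed the filter on low counts in the WT fit.

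The serine proteases of primary granules are encoded by Prtn3 (proteinase 3), Elane (neutrophil elastase) and Ctsg (cathepsin G). Prtn3 had 0.0, 24.4, 0.0, 1.2 and 0.7 CPM in mutant FrC, against 154.9, 1.3, 26.1, 329.3 and 256.4 CPM in mutant FrB. Elane had 0.0, 24.3, 0.0, 1.7 and 0.4 CPM in mutant FrC, against 126.4, 15, 0.8, 485.7 and 283.1 CPM in mutant FrB. The low members of the FrB group differed between the genes, mouse 5 for Prtn3 and mouse 8 for Elane, though these genes lie next to each other on chromosome 10 (GRCm38 annotation, Prtn3 at 79874476 to 79883174 and Elane at 79886247 to 79888215). Their log2 fold changes were -8.04 and -7.13 (adjusted p = 0.0108 for both), and that of Ctsg was -7.74 (adjusted p = 0.0479). Mpo, myeloperoxidase of the same granules, had 0.0, 612.2, 0.0, 14.5 and 0.5 CPM in mutant FrC, against 476.6, 0.6, 2.8, 1165.8 and 639.5 CPM in mutant FrB, and its log2 value of -7.37 did not pass (adjusted p = 0.9996).

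Also called were Ltf (lactoferrin), Chil3 (a chitinase-like protein of myeloid cells), Cd177 (a neutrophil surface glycoprotein) and Cd63 (a tetraspanin of granule membranes), with log2 fold changes from -8.97 for Cd63 to -5.81 for Chil3. Ly6c2, a surface antigen of monocytes and plasmacytoid dendritic cells, had 0.1, 64.1, 0.1, 7.5 and 41.4 CPM in mutant FrC, against 89.0, 107.9, 129.7, 990.4 and 358.1 CPM in mutant FrB, without overlap, and fell by 5.20 on the log2 scale (adjusted p = 0.012). Ly6c2, Chil3 and Gbp7 have close paralogs, and the sources used here do not say how reads that fit several genes were treated, which leaves their counts uncertain.

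Mouse by mouse, all 15 genes that fell were lower in FrC in mice 4, 8, 9 and 10, with median log2 ratios of CPM + 1 of -6.34, -7.63, -7.40 and -6.99. In mouse 5, 11 of the 15 were higher in FrC and the median was 2.44. In 4 of the 15, Retnlg, Runx3, Ly6c2 and Gbp7, all FrC libraries were below all FrB libraries, and the same 4 were lower in FrC in 5 of 5 mice; over all genes tested, 67 (0.713%) did not overlap in this direction and 307 (3.27%) were lower in 5 of 5 mice. With the low-complexity libraries left out all 15 were lower in FrC by the fit, with a median fitted log2 value of -8.96. The mutant libraries kept there are FrC of mice 4 and 8 and, as the lone FrB library, that of mouse 5. All had also entered the calls.

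**Figure D2:**
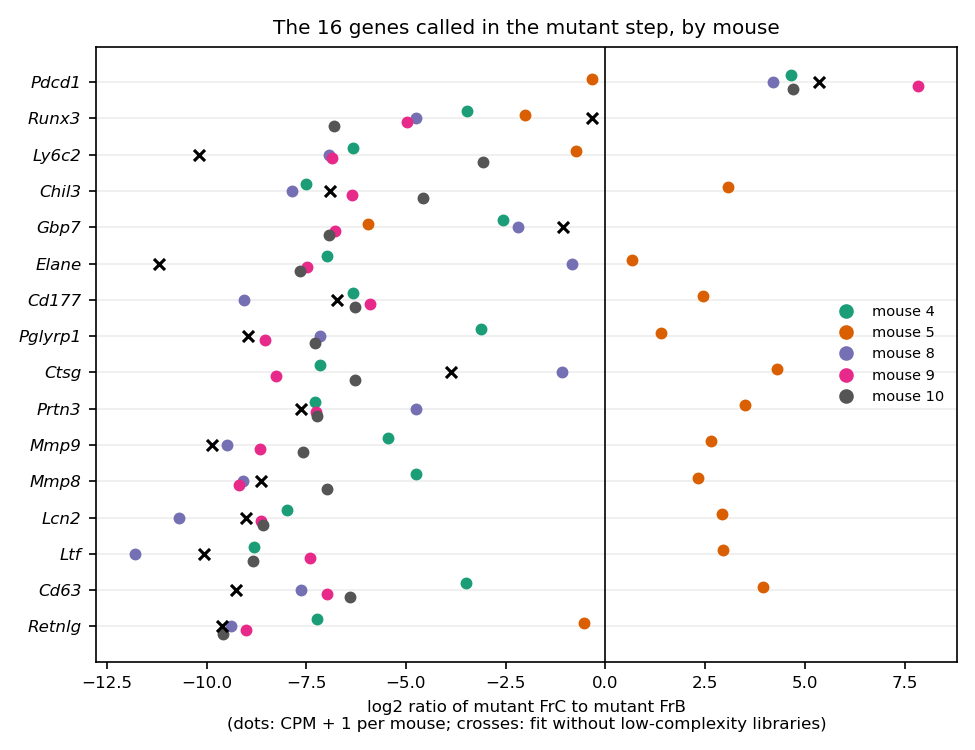
Log2 ratio of mutant FrC to mutant FrB for the 16 genes called in the mutant step; dots are single mice (CPM + 1) and crosses the fit without low-complexity libraries. In mice 4, 8, 9 and 10 all 15 genes that fell lie left of 0, in mouse 5 11 of them lie right of 0, and the crosses of Runx3 and Gbp7 stand at -0.33 and -1.07.

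The list of granulocyte and monocyte markers, which holds 8 of the genes called, ran in the same direction. Of its 23 genes 21 were tested, 8 fell, none rose and 20 had a fitted value below 0. Over all 9395 genes tested 0.16% fell and 4603 were below 0. The median log2 fold change of the list was -7.37 against 0.03 over all genes tested, and -2.64 without the pairing by mouse. Members such as Mmp8 and Mmp9 passed the filter on low counts largely through mutant FrB. That tilts the count below 0 and the median toward lower values in FrC. The list summed to 47.6, 31681, 56.6, 327.9 and 1026 CPM in mutant FrC of mice 4, 5, 8, 9 and 10, against 18293, 2792, 61480, 52103 and 24722 CPM in mutant FrB. Thus the marker RNA made up 6.15% of all counts in FrB of mouse 8 and 3.17% in FrC of mouse 5, but 0.00476% in FrC of mouse 4. In WT mice the sum ran from 78.9 to 954.3 CPM in FrC and from 256.1 to 12816 CPM in FrB, and 4 of 14 tested members fell there, where 4.44% of all genes did. All 21 tested members were higher in FrC in mouse 5, and the number that fell was 15 of 21 without mouse 5. Marker level moved with library quality as well as with fraction: the sum was 327.9 to 61480 CPM in the 7 low-complexity mutant libraries and 47.6 to 2792 CPM in the other 3. The part of quality in this result was not tested, and in these bulk libraries fewer granulocytes and less RNA per granulocyte cannot be told apart. Granulocytes lack B220, which was part of the FrB gate, and whether such cells entered the sort was not tested.

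Single markers of this list outside the calls showed the same levels. S100a8 and S100a9, the calprotectin subunits of the neutrophil cytosol, had 0.4 to 11089 CPM and 0.3 to 8817 CPM in mutant FrC, the highest being mouse 5 in each, against 671.6 to 16366 and 612.6 to 19234 CPM in mutant FrB, the lowest being mouse 5 in each. Their log2 values were -6.38 and -7.50 and did not pass (adjusted p = 0.419 and 0.198). Ngp and Camp, which encode granule peptides, stood at -7.66 and -6.84 (adjusted p = 0.0515 and 0.142).

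Markers of other cells that could have entered the sort differed in how they moved. Plasma cell markers summed to 1545, 1645, 1461, 503.7 and 848.0 CPM in mutant FrC and 12901, 11888, 950.0, 1473 and 4011 CPM in mutant FrB, and Jchain, which encodes the chain that joins IgM and IgA polymers, carried the largest share of that sum in FrB of mice 4 and 5. Jchain had 9.0, 365.6, 2.2, 274.5 and 6.2 CPM in mutant FrC, against 10532, 10034, 196.3, 879.2 and 2675 CPM in mutant FrB. It was lower in FrC in 5 of 5 mice with a log2 value of -6.68 ± 1.81 (SE) and did not pass (adjusted p = 0.0909), but it passed without mouse 5 (adjusted p = 0.0431). In WT mice Jchain had 4.9 to 8969 CPM in FrC and 14624 to 47967 CPM in FrB.

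Plasmacytoid dendritic cell markers summed to 274.5 to 555.8 CPM in mutant FrC and 497.1 to 1666 CPM in mutant FrB. Of 10 tested, 1 fell, Ly6c2, and the median was -4.31, while 8 of 12 fell in WT mice (4.44% of all genes). Siglech, the lectin that defines these cells in mice, had 0.1, 0.2, 0.0, 7.5 and 0.1 CPM in mutant FrC, against 111.6, 109.7, 1.2, 28.7 and 85.4 CPM in mutant FrB, with a log2 value of -8.30 (adjusted p = 0.0525).

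Erythroid markers stood at 524.3, 3256, 533.6, 80464 and 855.2 CPM in mutant FrC of mice 4, 5, 8, 9 and 10, and at 4810, 12630, 4876, 1987 and 394.0 CPM in mutant FrB. The FrC library of mouse 9 thus held 8.05% of its counts in these genes, mainly beta-globin (Hbb-bs, 55105 CPM), and none of the 9 tested passed. T cell markers had 213.1 to 1668 CPM in mutant FrC and 116.1 to 288.4 CPM in mutant FrB. The highest, FrC of mouse 9, came from Lck, a kinase of T cells that B-lineage cells also express (1629 CPM), while the T cell receptor components Cd3e and Cd3d had 1.2 and 0.0 CPM there. No T cell, natural killer, erythroid, basophil and mast cell, plasma cell or stromal marker was called over the 5 pairs, and no megakaryocyte marker passed the filter on low counts.

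**Figure D3:**
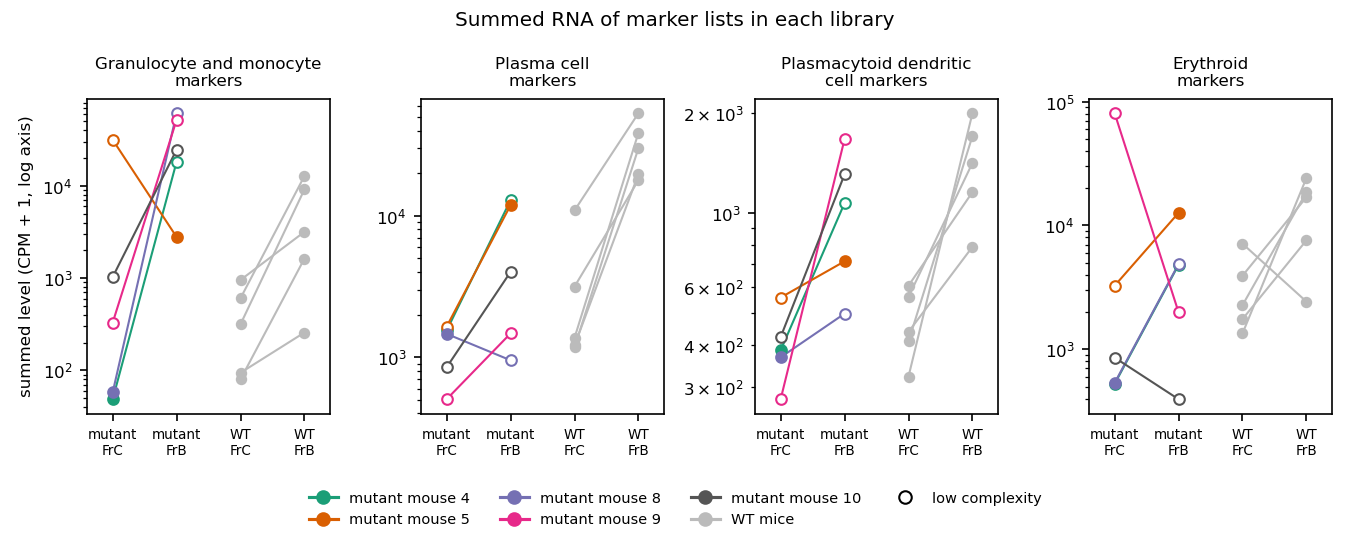
Summed CPM + 1 (log axis) of granulocyte and monocyte, plasma cell, plasmacytoid dendritic cell and erythroid marker lists in each library of mutant FrC, mutant FrB, WT FrC and WT FrB; lines join the libraries of a mouse and open points are low-complexity libraries. Granulocyte markers were lower in FrC in 4 of 5 mutant mice, with mouse 5 at 31681 CPM in FrC and 2792 CPM in FrB, and the erythroid sum of mutant FrC of mouse 9 stands at 80464 CPM.

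Pdcd1, the gene that rose, encodes a receptor that dampens antigen receptor signalling. It was measured at 23.9, 0.2, 17.4, 251.3 and 53.2 CPM in mutant FrC of mice 4, 5, 8, 9 and 10, against 0.0, 0.5, 0.0, 0.1 and 1.1 CPM in mutant FrB. It was higher in FrC in 4 of 5 mice, mouse 5 having 1 count in FrC and 8 counts in FrB, and the fitted log2 fold change was 7.17 ± 1.42 (SE, adjusted p = 0.00134). WT mice had 24.7, 3.2, 21.6, 15.9 and 8.2 CPM in FrC, against 4.6, 0.0, 6.9, 2.0 and 2.5 CPM in FrB, higher in FrC in 5 of 5 mice with a log2 value of 2.62 that did not pass (adjusted p = 0.0759). The difference between the genotypes in this step was 4.41 ± 2.06 (SE, adjusted p = 0.946), so it was not called. With the low-complexity libraries left out the log2 value was 5.34, not called, and the 251.3 CPM of mouse 9 came from the library with the fewest counts. Without mice 5 and 9 it was 7.73 and not called (adjusted p = 0.458).

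Runx3, a Runt-family transcription factor of lymphoid and myeloid cells, had 20.9, 5.6, 22.2, 0.0 and 0.3 CPM in mutant FrC, against 240.5, 25.8, 628.8, 30.5 and 144.7 CPM in mutant FrB. It fell by 5.01 ± 1.14 on the log2 scale (SE, adjusted p = 0.0108), lower in 5 of 5 mice and with no overlap. WT libraries had 12.6 to 21.1 CPM in FrC and 2.3 to 23.8 CPM in FrB, so mutant FrB lay above the WT range in all 5 mice, and mutant FrC of mice 9 and 10 lay below it. The step differed from that of WT mice by -5.15 ± 1.26 (SE, unadjusted p = 0.000665), which was not called over 11523 genes (adjusted p = 0.946). In the 3 libraries that are not low-complexity Runx3 stood at 20.9 and 22.2 CPM in FrC and 25.8 CPM in FrB, and the fitted value there was -0.33. Gbp7, an interferon-inducible GTPase, had 26.6, 0.0, 34.6, 0.0 and 0.3 CPM in mutant FrC, against 162.9, 61.3, 161.8, 108.6 and 158.2 CPM in mutant FrB. It fell by 6.13 (adjusted p = 0.0163), with a value of -1.07 that was not called when the low-complexity libraries were left out, and it was not called without mouse 5 (adjusted p = 0.116) or without mice 5 and 9 (adjusted p = 0.26). It fell by 1.64 in WT mice (adjusted p = 0.031).

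Below Pdcd1, the genes of lowest p on the higher side did not pass. Ccnq, which encodes cyclin Q, had 89.9, 149.8, 25.7, 673.2 and 17.2 CPM in mutant FrC, against 6.1, 58.6, 0.4, 9.0 and 2.9 CPM in mutant FrB, higher in 5 of 5 mice (log2 3.99, adjusted p = 0.0588). Its value with the low-complexity libraries left out was -0.09. Gmpr (guanosine monophosphate reductase) and Plk2 (a polo-like kinase) stood at 4.82 and 5.68 (adjusted p = 0.142 and 0.21), and Spp1, the secreted protein osteopontin, at 7.05 (adjusted p = 0.166). On the lower side Ltb, the lymphotoxin beta subunit, had 26.4, 2.2, 12.9, 5.2 and 0.4 CPM in mutant FrC, against 94.3, 57.0, 390.3, 139.1 and 71.0 CPM in mutant FrB. It did not pass (log2 -4.28, adjusted p = 0.0909), whereas in WT mice it fell by 2.26 (adjusted p = 0.000269).

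None of the 28 lists of B-lineage, cell cycle, stress and metabolic genes had a member called over the 5 mutant pairs, where 0.16% and 0.0106% of all genes were called lower and higher. Their medians ran from -1.49 for the interferon response to 0.73 for V(D)J recombination and end joining, against 0.03 over all genes tested. The largest lists lay near that value over the 5 pairs, with 0.13 for 77 cytosolic ribosomal protein genes and 0.30 for 48 respiratory chain and ATP synthase genes. With the low-complexity libraries left out they stood at -0.42 and -0.41, against 0.0 over all genes. Without mice 5 and 9 they stood at -0.90 and 0.13, against 0.31 over all genes.

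The recombination genes were led by Dntt, terminal transferase, which adds bases at V(D)J joints. Dntt had 131.3, 73.2, 416.5, 50.5 and 307.3 CPM in mutant FrC of mice 4, 5, 8, 9 and 10, against 765.0, 606.5, 1763.8, 817.1 and 1498.3 CPM in mutant FrB. All FrC libraries were below all FrB libraries and each mouse had less Dntt in FrC, yet the log2 value of -2.40 ± 0.98 (SE) did not pass (adjusted p = 0.794); it passed without mice 5 and 9, at -2.58 (adjusted p = 0.00899). In WT mice the groups overlapped, at 34.0, 120.5, 96.2, 710.6 and 289.4 CPM in FrC and 1268.4, 973.0, 456.6, 1027.5 and 1844.9 CPM in FrB, with a log2 value of -2.79 (adjusted p = 0.0988). The difference between the genotypes was 0.37 ± 0.81 (SE, unadjusted p = 0.648).

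Rag1, the recombinase subunit that cuts DNA, had 19.8, 8.0, 57.4, 5.8 and 129.4 CPM in mutant FrC, against 190.4, 54.8, 145.3, 83.1 and 295.3 CPM in mutant FrB. It was lower in FrC in each of the 5 mice and the groups overlapped (log2 -2.08, adjusted p = 0.9996). Its partner Rag2 had 42.3, 1.1, 134.9, 7.5 and 1.4 CPM in mutant FrC and 122.9, 100.3, 4.4, 14.2 and 49.1 CPM in mutant FrB, with mouse 8 going the other way. In WT mice Rag2 fell by 1.07 (adjusted p = 0.0155), and Rag1 at -0.95 did not pass (adjusted p = 0.183).

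Among surface markers of the fractions, Spn (CD43) had 32.6, 179.4, 49.7, 0.0 and 114.4 CPM in mutant FrC and 158.1, 68.8, 340.9, 150.1 and 343.3 CPM in mutant FrB, against 30.5 to 50.4 CPM in WT FrC and 17.4 to 62.4 CPM in WT FrB. Mutant FrB lay above every WT FrB library, and in 4 of 5 mutant mice Spn was lower in FrC. Spn ran from 0.0 to 343.3 CPM in the 7 low-complexity mutant libraries and from 32.6 to 68.8 CPM in the other 3. The FrB library that is not low-complexity, that of mouse 5, had the 68.8 CPM. The part of library quality was not tested. The log2 value of -2.39 did not pass (adjusted p = 0.909). Cd24a (heat-stable antigen) had 3784, 2318, 4258, 635.4 and 3775 CPM in mutant FrC and 1583, 2544, 1011, 1324 and 1746 CPM in mutant FrB. The libraries with Enpep above 10 CPM in FrC, mice 4, 8 and 10, were those with more Cd24a in FrC than in FrB, and its log2 value was 1.06 (adjusted p = 0.9996), while in WT mice Cd24a rose by 0.74 (adjusted p = 0.00256). CD43 and CD24 were part of the FrB gate. Kit, the stem cell factor receptor, stood at 2.3 to 6.3 CPM in mutant FrC and 2.5 to 30.5 CPM in mutant FrB, and fell by 3.08 on the log2 scale in WT mice (adjusted p = 0.0205) with a value of -1.12 in mutants (adjusted p = 0.9996).

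**Figure D4:**
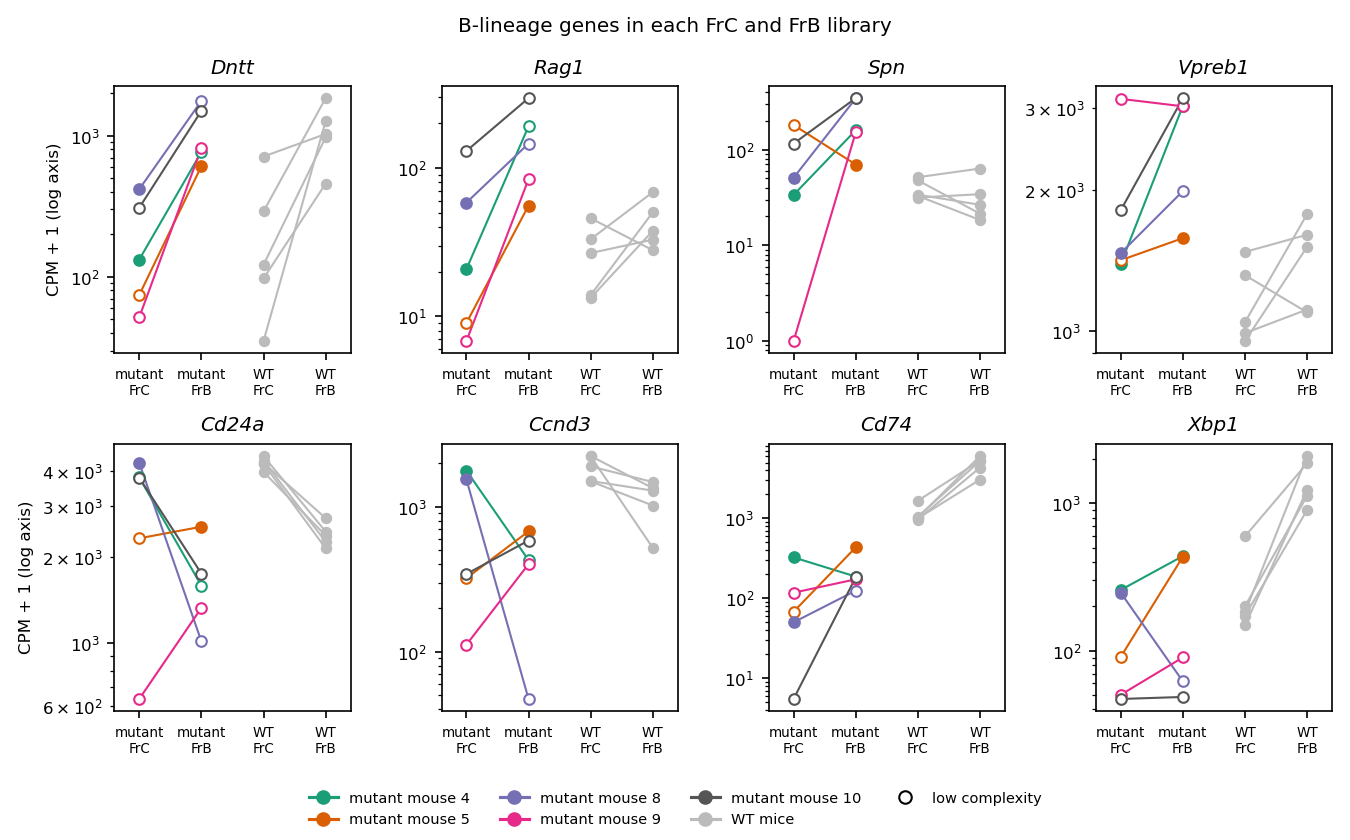
CPM + 1 (log axis) of Dntt, Rag1, Spn, Vpreb1, Cd24a, Ccnd3, Cd74 and Xbp1 in each library of mutant FrC, mutant FrB, WT FrC and WT FrB; lines join the libraries of a mouse and open points are low-complexity libraries. Dntt is lower in FrC in every mutant mouse. The Spn level of mutant FrB lies above WT FrB, and is lowest (68.8 CPM) in the mutant FrB library that is not low-complexity. The Cd74 and Xbp1 levels of mutant FrB (123.7 to 432.9 and 47.6 to 437.9 CPM) lie below every WT FrB library.

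The surrogate light chain and the signalling chains of the pre-BCR showed no call. Vpreb1 had 1390, 1416, 1466, 3130 and 1810 CPM in mutant FrC and 3023, 1578, 1989, 3017 and 3140 CPM in mutant FrB, and its log2 value was -0.20. Igll1 (lambda 5) stood at 1121 to 3528 CPM in mutant FrC and 929.3 to 2906 CPM in mutant FrB. The signalling chain Cd79a had 2909, 138.6, 2291, 167.1 and 774.2 CPM in mutant FrC and 243.2, 2069, 189.9, 499.7 and 785.4 CPM in mutant FrB. Its 3 highest libraries were the 3 that are not low-complexity, whichever fraction they came from. In WT mice Cd79a fell by 0.58 and Cd79b by 0.69 (adjusted p = 0.0148 and 0.00341), while their log2 values in mutants were 1.02 and 0.23 (adjusted p = 0.9996 for both).

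Transcription factors of the early B lineage were not called either. Ebf1, which opens the B-cell programme, had 308.3, 607.8, 542.9, 23.2 and 604.9 CPM in mutant FrC and 823.3, 391.5, 753.2, 841.3 and 489.8 CPM in mutant FrB. Pax5, the factor of B-cell commitment, had 200.9, 144.0, 115.6, 10.4 and 352.9 CPM in mutant FrC and 144.0, 116.3, 273.4, 131.6 and 213.3 CPM in mutant FrB. The FrC library of mouse 9 was the lowest for both, and the log2 values were -0.84 and -0.24. The list of 14 such factors had a median of -0.56 in mutants, or -0.21 with the low-complexity libraries left out. In mutants 2 of its members were above 0, where 4792 of all 9395 genes tested were. In WT mice the median was 0.32 and 4 rose, where 1.96% of all genes did. There 11 were above 0, as were 5653 of all 10868 genes tested. Over the IL-7 axis, the receptor gene Il7r had 4.1 to 518.3 CPM in mutant FrC and 66.2 to 247.6 CPM in mutant FrB, and Cish, a feedback inhibitor induced by STAT5, had 0.3, 0.6, 24.9, 0.0 and 1.0 CPM in mutant FrC and 85.7, 27.0, 6.0, 22.7 and 79.4 CPM in mutant FrB (log2 -5.43, adjusted p = 0.754).

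Part of the cell cycle genes rose in the WT step, and none was called in mutants. Of 35 genes of G1/S and DNA replication 11 rose in WT mice, where 1.96% of all genes did, and 34 were above 0 (median 0.34), while in mutants none passed and 19 were above 0 (median 0.15). Of 34 genes of G2/M and mitosis 4 rose in WT mice and 34 were above 0 (median 0.40), and in mutants none passed and 25 were above 0 (median 0.56, or 0.06 with the low-complexity libraries left out). Ccnd3, the D-type cyclin needed for pre-B cell division, had 1777, 320.8, 1546, 110.8 and 342.9 CPM in mutant FrC and 428.1, 676.6, 46.2, 401.2 and 584.1 CPM in mutant FrB. The 3 libraries that are not low-complexity were again the 3 highest, and the log2 value was 0.96 (adjusted p = 0.9996). Mcm5, a subunit of the replicative helicase, rose by 1.09 in WT mice (adjusted p = 0.00264) and had a value of -0.07 in mutants. Mki67, a marker of dividing cells, had 750.3, 1252, 591.2, 332.5 and 1283 CPM in mutant FrC and 1139, 900.6, 556.1, 1592 and 1079 CPM in mutant FrB, so RNA of dividing cells was present in all 10 libraries.

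The lists with the most members that fell in the WT step, those of the unfolded protein response and of later B cells, had no call in mutants. The unfolded protein response list had 32 tested genes, of which 19 fell in WT mice (4.44% of all genes; list median -0.94) and none in mutants (median -0.55, or 0.17 with the low-complexity libraries left out). Xbp1, the transcription factor spliced in that response, had 257.5, 89.9, 246.7, 49.3 and 46.1 CPM in mutant FrC and 437.9, 433.6, 61.0, 89.1 and 47.6 CPM in mutant FrB, against 147.9 to 596.0 CPM in WT FrC and 900.1 to 2092 CPM in WT FrB. Mutant FrB lay below every WT FrB library. Its log2 value was 0.04 ± 0.86 in mutants and -2.72 ± 0.23 in WT mice (SE, adjusted p = 0.9996 and 0.00014), a difference of 2.73 ± 0.80 (SE, unadjusted p = 0.00307, adjusted p = 0.946). The chaperone gene Hspa5 (BiP) had 591.8, 760.0, 861.1, 218.8 and 819.1 CPM in mutant FrC and 679.5, 364.0, 647.2, 863.6 and 690.1 CPM in mutant FrB. Plasma cell markers, which include Xbp1, summed to 17841 to 53073 CPM in WT FrB and 950.0 to 12901 CPM in mutant FrB, and their part in this difference was not tested.

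Of the genes of immature and mature B cells 19 of 31 tested fell in WT mice and 1 rose (median -1.88), where 4.44% and 1.96% of all genes did. None of 27 passed in mutants (median -0.31). Cd74, the chaperone that occupies the peptide groove of class II molecules, had 324.1, 66.9, 49.1, 116.6 and 4.5 CPM in mutant FrC and 186.1, 432.9, 123.7, 171.9 and 181.6 CPM in mutant FrB, against 966.9 to 1661 CPM in WT FrC and 3058 to 6031 CPM in WT FrB. The class II chain gene H2-Aa had 174.3, 31.2, 154.3, 30.8 and 191.5 CPM in mutant FrC and 85.0, 100.4, 394.3, 263.1 and 90.0 CPM in mutant FrB. These levels were spread over both fractions, and the log2 values were -1.44 and -0.40 in mutants (adjusted p = 0.9996 for both) against -2.16 and -1.91 in WT mice (adjusted p = 6.84e-05 and 0.00014).

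Zinc transport genes showed no call in 8 importers and 8 exporters and metallothioneins tested. Slc39a7 had a log2 value of -1.06 ± 1.05 (SE, adjusted p = 0.9996). The metallothionein Mt1, which binds zinc and is induced by it, had 41.4, 132.8, 97.6, 23.2 and 27.1 CPM in mutant FrC and 107.3, 87.7, 1.6, 143.8 and 6.0 CPM in mutant FrB. The plasma membrane importer Slc39a14 had 3.0, 7.4, 0.6, 2.9 and 59.8 CPM in mutant FrC and 0.0, 8.2, 0.0, 0.0 and 2.6 CPM in mutant FrB (log2 5.35, adjusted p = 0.9996), and with the low-complexity libraries left out its value was -2.25. Ddit3, the stress factor CHOP, had 45.0, 14.1, 70.1, 2.9 and 199.7 CPM in mutant FrC and 1.3, 34.1, 28.5, 97.0 and 59.2 CPM in mutant FrB.

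**Figure D5:**
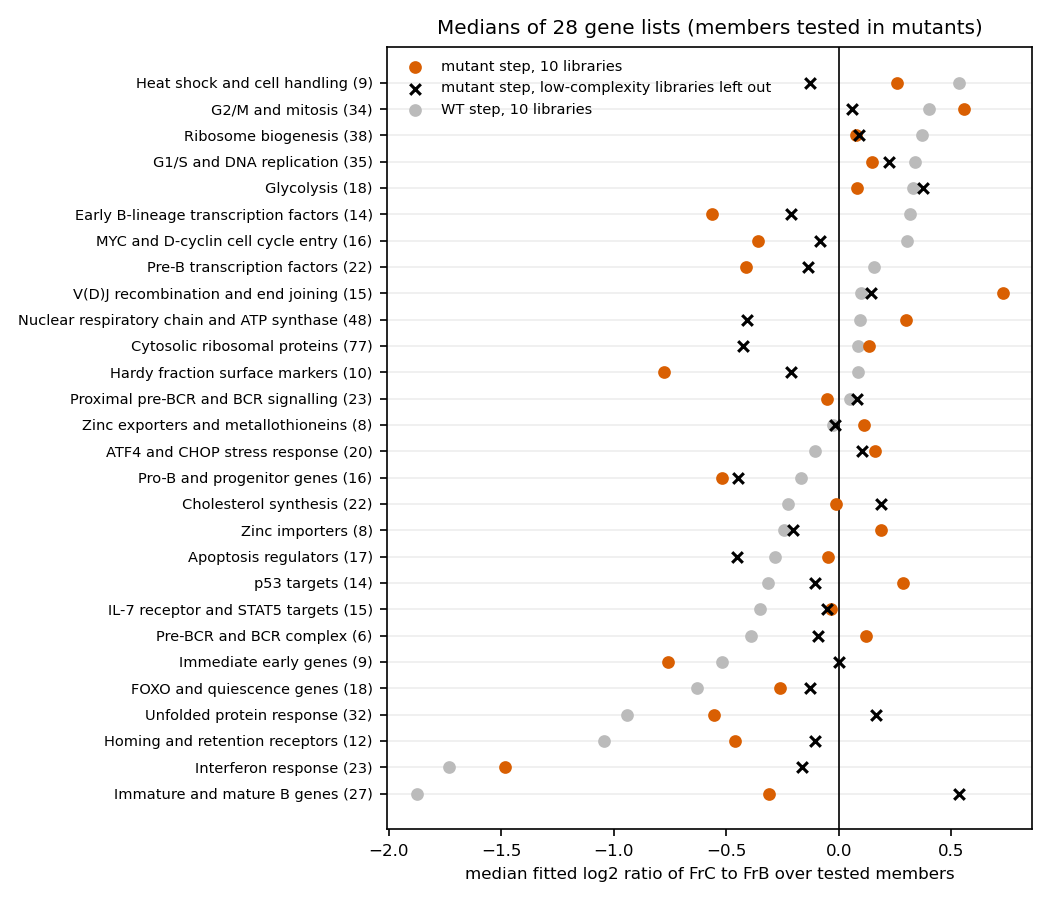
Median fitted log2 ratio of FrC to FrB over the tested members of 28 gene lists, for the mutant step (orange), the mutant step with low-complexity libraries left out (crosses) and the WT step (grey), sorted by the WT value. The WT medians run to -1.88 for immature and mature B genes, where the mutant medians are -0.31 and 0.53.

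The difference between the mutant and WT steps was tested directly over the 20 libraries. Of 11523 genes none was called (0.0%), with 541 at an unadjusted p under 0.05 and a smallest adjusted p of 0.946; DESeq2 called 118 higher and 35 lower in the same comparison. Of the 16 genes called in mutants 4 were called in WT mice in the same direction, Pglyrp1, Lcn2, Elane and Gbp7. Of the genes that rose in WT mice 212 were tested in mutants and 125 (59.0%) had a positive value there, with a median of 0.19 against 0.90 in WT mice. Of those that fell 405 were tested and 265 (65.4%) had a negative value, with a median of -0.59 against -1.35. Over all 9316 genes tested in both steps 53.3% had the same sign.

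Without mutant mice 5 and 9, a choice made after their Enpep level was seen, 86 genes were called higher and 11 lower in the difference between steps. Runx3 was among those lower (-6.04, adjusted p = 0.0394) and Xbp1 and the disulfide isomerase Pdia3 among those higher (2.78 and 2.63, adjusted p = 0.0429 and 0.0276). These genes were chosen after their values were seen. In that set all 3 mutant FrB libraries are low-complexity and 2 of the 3 mutant FrC libraries are not, so fraction and library quality are largely confounded within the mutants and cannot be told apart there.

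Measures of whole libraries overlapped between the fractions. Endogenous counts relative to spike-in counts, on a log2 scale, averaged 11.17 ± 2.20 in mutant FrC and 10.69 ± 0.96 in mutant FrB (SD, n = 5 each), and genes detected averaged 10987 ± 491 in mutant FrC and 11124 ± 602 in mutant FrB. The spike-in ratio of FrC of mouse 9, 13.75, rests on 125 spike-in counts, the fewest of the mutant FrC and FrB libraries. The mean difference in this ratio was 0.48 over the 5 mice and -0.53 without mouse 9. The share of detected genes with 1 to 9 counts averaged 24.5 ± 20.5% in mutant FrC and 21.9 ± 11.8% in mutant FrB. Over 5 such measures the exact two-sided permutation p within mice ran from 0.688 to 0.938, each 0.938 after adjustment, where 5 pairs cannot give less than 0.0625.

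One gene model followed library quality and not fraction. Lars2, the mitochondrial leucyl-tRNA synthetase, had 1901, 22837, 1474, 6824 and 54043 CPM in mutant FrC of mice 4, 5, 8, 9 and 10, and 30083, 4256, 42421, 37779 and 41135 CPM in mutant FrB. It ran from 6824 to 54043 CPM in the 7 low-complexity mutant libraries, from 1474 to 4256 CPM in the other 3, and from 418.0 to 4869 CPM in the 10 WT libraries. Its log2 value of -0.98 did not pass (adjusted p = 0.9996).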

How the data were processed

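The values used are unnormalized gene counts, as deposited by the authors, from Smart-seq2 reads. The submitters' processing notes list HISAT2 2.1.0, featureCounts 1.4.6, Subread, DESeq2 and build mm10. Annotation, strand setting and treatment of multiply mapped reads are not stated there, so reads of overlapping or antisense genes may be mixed. Identifiers of 21728 of 21958 genes matched GENCODE M21 (GRCm38), and 92 spike-in rows stayed out of totals and tests. Levels are CPM (counts scaled to the endogenous total); a fold per mouse is a log2 ratio of CPM + 1.

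The test across genes was edgeR's two-sided quasi-likelihood test (edgeR 4.0.16, R 4.3.3) with mouse as a block, TMM scaling and the filterByExpr filter (minimum count 10, minimum total 15). Calls needed a p under 0.05 after Benjamini-Hochberg adjustment. An SE beside a fitted log2 value is the size of that value divided by the square root of the F statistic of the test. It rests on dispersion estimates that share information across genes, and it does not measure the spread over mice of a single gene. The procedure was also run on simulated counts in which each gene had the same mean share in every mouse. That run does not cover the differences in composition between these libraries. DESeq2 1.42.0 and limma 3.58.1 served as alternatives, beside other scalings, filters, sets of libraries, an indicator of low-complexity libraries and each mouse left out. TMM factors ran from 0.813 to 1.51 in mutant libraries, apart from 0.196 in FrC of mouse 9. Pairs come from the animal: FrC and FrB libraries of a number are the same mouse, though the deviations of mutant pairs correlated by only -0.22 to 0.03. Whole-library measures were compared by exact sign flips within mice (32 arrangements).

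Named are the 10 genes of lowest p in each direction, up to 4 called or otherwise 2 members of each of the 37 gene lists, a panel of stage genes and the 5 genes of lowest p in each direction of the difference in step. Members and lists were chosen with earlier results of these data known, so no list was tested. Reads were amplified and carry no molecular identifiers, so any precision from depth covers counting error only.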

Additional observations from a re-analysis of the deposited data

Results flagged for a closer look

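In 26 groups of 5 values tested, 4 had an extreme value farther from the rest than the 95% limit of Dixon's test allows. In independent groups chance gives about 1 in 20. These 4 are genes that moved together in the same mouse, so their number cannot be set against that rate. In each it was the log2 ratio of FrC to FrB in mutant mouse 5 that was highest: -0.54 for Retnlg, 2.91 for Lcn2, 3.49 for Prtn3 and 2.44 for Cd177. In the other 4 mutant mice the ratio of each of these genes was between -10.69 and -4.76. The FrC library of mouse 5 is low-complexity, its FrB library is not, and its Enpep level is 0.6 CPM in FrC and 4.4 CPM in FrB. The part of these differences in these ratios was not tested.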

How the results depend on the processing

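The counts of genes called in the mutant step moved with almost every choice. In each alternative all 15 or 16 called genes that were tested kept their sign. They were picked for large changes in these same libraries, so a kept sign was likely beforehand and is no separate support. The count was 1 higher and 15 lower with the replicate block. It was 0 and 0 with no replicate block, with DESeq2 size factors, with all 20 mutant libraries, with the pairs on the same side of the 15% limit (mice 9 and 10) and with the low-complexity libraries left out. It was 0 and 3 with ERCC scaling, 1 and 3 with limma voom, 7 and 19 without the filter on low counts, 156 and 199 with DESeq2, and 482 and 135 in a fit of all 40 libraries. It was 1 and 17 with an indicator of low-complexity libraries. Leaving out 1 mouse gave 0 to 5 higher (2 without mouse 8) and 0 to 35 lower, and leaving out mice 5 and 9, chosen after seeing the data, 4 and 39. The cause was not tested.

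The difference between the steps had 0 calls, against 9 higher and 3 lower without the filter, 118 and 35 with DESeq2, 65 and 0 in the fit of all 40 libraries, 0 to 1 higher and 0 lower with 1 mouse left out, and 86 and 11 without mice 5 and 9. The WT step had 213 and 482, against 4469 and 274 with ERCC scaling, 582 and 1051 with DESeq2, 337 higher with limma voom, 0 and 1 in the fit of all 40 libraries, 10 and 100 with the low-complexity libraries left out, and 63 to 151 higher (72 without mouse 2, 115 without mouse 7) and 265 to 426 lower (289 without mouse 2, 298 without mouse 3) with 1 mouse left out.

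With 1 mouse left out, the mean difference of FrC minus FrB ran from -0.53 to 1.04 for the log2 ratio to spike-ins, from -3163521 to 8321439 for endogenous counts, from -376.0 to 83.3 for genes detected, from -4.69 to 11.6 percentage points for the share with 1 to 9 counts and from -3.15 to 2.56 points for the share of the 50 highest genes, so each changed sign. Of 612 list medians recomputed, 589 stayed within 1 SD over mice and 23 moved, among them the granulocyte and monocyte median, -2.64 with no replicate block. The median over all genes shifted by -0.18 without mouse 4, -0.22 without mouse 8, -0.39 in the same-side pairs and 0.28 without mice 5 and 9, and by less than 0.1 under each scaling.

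Depth limits the FrC library of mouse 9 (1723215 counts) and the FrB library of mouse 8 (2490592 counts) most. The ERCC scaling of the FrC library of mouse 9 rests on 125 spike-in counts.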

Other observations

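Further genes passed without mouse 5 that had not passed over the 5 pairs. In that fit every FrB library is low-complexity and FrC of mice 4 and 8 is not, so fraction and library quality are partly confounded. They included Fcnb (ficolin B, secreted by myeloid cells), Wfdc21, Ngp, Camp, Mpo, Hp (haptoglobin) and Anxa3, with log2 values from -13.04 for Fcnb to -6.91 for Hp, and the adaptor of myeloid and natural killer receptors, Tyrobp, at -4.70 (adjusted p = 0.0148). On the higher side Plk2, Gmpr, Ccnq and Pinx1 joined Pdcd1, at 7.88, 5.68, 4.70 and 4.57 (adjusted p = 0.0207, 0.0134, 0.0336 and 0.0418). These genes were chosen after their values were seen. With mice 5 and 9 both left out none of these 5 was called, and the genes called higher were Ccdc22, Enpep, Idh3g and Ciao2a, of which Enpep chose the mice and is no result. Their log2 values were 14.22, 9.56, 3.96 and 3.57.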
